A study of Rattus norvegicus with 6 samples.

Results

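The 5 mature miRNAs of the miR-23/27/24 clusters, rno-miR-23a, rno-miR-23b, rno-miR-27a, rno-miR-27b and rno-miR-24, were followed in rat kidney with and without aristolochic acid (AA), a plant carcinogen that harms the kidney. They are the 5 probes, of 5560 miRNA probes on the array and 679 with a rat name, whose rat name is one of these; the passenger strands, whose names end in an asterisk, were kept apart. The animals of both groups were male Big Blue rats (Fisher 344, transgenic), which carry a reporter transgene for mutation assays in every cell. Control replicates 13, 14 and 15 were untreated. AA replicates 19, 20 and 21 received the sodium salt of AA by gavage. The dose was 10.0 mg/kg, given 5 times weekly over 12 weeks and started in rats 6 weeks old, which were killed 1 day after dosing ended. Each of the 6 arrays held 1 kidney sample, labelled with Cy3 and read in 1 colour, and each member probe lay on 2 spots. The comparisons ask whether the members differed between AA-treated and control kidneys, and whether the a and b copies of miR-23 and of miR-27 moved apart.

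A miRNA guides a silencing complex to messenger RNAs, mainly through its seed, the bases 2 to 8 from its 5′ end, so miRNAs with the same seed share most of their predicted targets. In mammals miR-23, miR-27 and miR-24 are cut from a common transcript, and duplication of that unit gave an a cluster and a b cluster. miR-23 and miR-27 are known for their part in the growth of blood vessels, miR-27 also for control of fat cell formation through PPARγ, and miR-24 for control of cell division. All are made in many tissues, the kidney included.

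The array targets of the 5 members are shown first, because the comparison of the a and b copies rests on a single base. Capitals mark the seed.
rno-miR-23a: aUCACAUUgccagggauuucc
rno-miR-23b: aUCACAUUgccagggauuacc
rno-miR-27a: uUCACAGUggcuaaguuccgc
rno-miR-27b: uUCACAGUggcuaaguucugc
rno-miR-24: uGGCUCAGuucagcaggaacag
The pair of miR-23 targets share their seed and differ by U19A, and the miR-27 pair by C19U, with positions counted from 1 at the 5′ end of the a copy. Both substitutions lie outside the seed. The seeds of miR-23 and miR-27 differ from each other, and miR-24 has another. All 5 targets were identical to a mature rat sequence in RefSeq.

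In the RefSeq annotation of the rat build GRCr8, the a cluster lies on the minus strand of chromosome 19. Mature miR-23a is at chr19:40859778-40859798, miR-27a at chr19:40859614-40859634 and the miR-24 copy of Mir24-2 at chr19:40859481-40859502, all within 389 bases. No annotated gene holds this cluster, and the nearest protein-coding genes on either side are Zswim4 and Nanos3. The b cluster lies on the minus strand of chromosome 17, inside the protein-coding gene Aopep, an aminopeptidase gene. Mature miR-23b is at chr17:1819405-1819425, miR-27b at chr17:1819163-1819183 and the miR-24 copy of Mir24-1 at chr17:1818672-1818693, within 814 bases, and Mir24-1 overlaps Mir3074. The mature miR-24 of both loci is identical, so its probe reads the sum of both clusters. These positions come from the match to RefSeq alone, since no build is given with the arrays.

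AA replicate 20 stood apart from the other arrays. Its miRNA probes had a mean signal above the empty spots of 149, against 263 to 484 on the other 5 arrays, and its 5S ribosomal RNA spots read 366, against 3109 to 6846. On this array 66.8% of tested probes lay well above background, which means over the empty-spot median by more than 3 robust SDs, against 84.9 to 97.9% elsewhere. Of 10 miRNAs listed as markers of kidney epithelium, 8 were well above background on all 6 arrays, miR-204 on 2 and miR-215 on 0. Of the 5 leukocyte markers with a probe, miR-150 and miR-146a were well above background on all 6 arrays, miR-223 on 2, and miR-142-3p and miR-142-5p on 0. Of the 3 erythroid markers with a probe, miR-451 was so on 5 arrays, and miR-144 and miR-144* on 0. Changes of the members, of the paralog differences and of the probes with a shared seed are given below with and without AA replicate 20. Those of miR-128, the marker lists and the other lists are given only with it included.

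None of the 5 members passed the test between AA and control. Of the 5, 4 had a mean lower in AA and miR-24 a mean slightly higher, and in each the groups overlapped. The adjusted p from limma was between 0.885 and 0.961, 0 of 5 had an unadjusted p under 0.05, and the methods' t-test also called 0. Over all 1132 tested probes the same adjusted threshold called 0.177%, the unadjusted one 4.95%, and 9.98% had groups that did not overlap. A log2 change below 0 was found in 54.2% of tested probes. In whole kidney, fewer cells of a type and less miRNA per cell cannot be told apart.

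The miR-23 probes were bright on every array. For miR-23a, the scanner signal, as the mean of its spots, was 10142, 6023 and 5610 in control (replicates 13, 14 and 15, an order kept below) and 11624, 694 and 6729 in AA (replicates 19, 20 and 21). For miR-23b it was 11286, 6746 and 5260 in control, and 12517, 862 and 7130 in AA. These values are unnormalized, so they include differences in brightness between arrays. On AA replicate 20 the miR-23 probes were lower by more than the mean of all miRNA probes. The 5S ribosomal RNA spots of that array were also low, at 366 against 3109 to 6846 on the others, so the drop was not particular to miR-23. The mean probe signal of that array above the empty spots was 149, against 263 to 484 on the others.

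After normalization miR-23a read 12.47, 12.35 and 12.57 (log2 signal) in control and 12.68, 11.48 and 12.67 in AA. AA replicates 19 and 21 lay above all controls and AA replicate 20 below all of them. The mean was 12.46 ± 0.11 (SD, n = 3) in control and 12.28 ± 0.69 (SD, n = 3) in AA, a log2 change of -0.19 (SE 0.38, 95% confidence interval -1.08 to 0.70, adjusted p = 0.921, limma). The spots of miR-23a on a single array differed with an SD of 0.04 (AA replicate 20) to 0.48 (control replicate 15) on the log2 scale.

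For miR-23b the normalized values were 12.65, 12.48 and 12.50 in control and 12.84, 11.80 and 12.78 in AA, with the same order of the AA arrays around the controls. The log2 change was -0.07 (SE 0.34, 95% confidence interval -0.87 to 0.72, adjusted p = 0.944, limma). Without AA replicate 20 the direction turned for both, to 0.19 for miR-23a (adjusted p = 0.821, limma) and 0.23 for miR-23b (adjusted p = 0.783, limma).

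The miR-27 probes were also above background on all arrays, but miR-27a only narrowly on AA replicate 20. The scanner signal of miR-27a was 2808, 1146 and 1029 in control and 3535, 95.6 and 1149 in AA, and the background limit of AA replicate 20 was 89.3. For miR-27b it was 2565, 1044 and 963 in control and 3194, 138 and 948 in AA. AA replicate 20 had the lowest value of each.

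After normalization miR-27a read 10.27, 10.00 and 10.33 in control and 10.50, 6.93 and 10.31 in AA. Its log2 change of -0.95 was the lowest of the 5 members and also the least certain (SE 0.89, 95% confidence interval -3.05 to 1.15, adjusted p = 0.885, limma), since the SD in AA was 2.01 against 0.17 in control. The 95% interval spans both a lower and a higher level. Without AA replicate 20 the change was 0.21 (adjusted p = 0.812, limma).

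For miR-27b the normalized values were 10.13, 9.87 and 10.24 in control and 10.33, 8.82 and 10.09 in AA. The log2 change was -0.33 (SE 0.42, 95% confidence interval -1.33 to 0.66, adjusted p = 0.885, limma), and 0.13 without AA replicate 20 (adjusted p = 0.870, limma). The AA arrays other than replicate 20 lay within or just above the controls.

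miR-24, which both clusters make, was the member least affected by that array. Its scanner signal was 2641, 1164 and 1458 in control and 3204, 251 and 1576 in AA. The normalized values were 10.17, 10.04 and 10.79 in control and 10.37, 9.98 and 10.79 in AA, so that the spread in control (SD 0.40) was as wide as in AA (SD 0.41). The log2 change was 0.04 (SE 0.33, 95% confidence interval -0.75 to 0.83, adjusted p = 0.961, limma), and its sign depended on which array was left out and on the scaling. It was 0.25 without AA replicate 20, and below 0 without control replicate 13, without control replicate 14 or without AA replicate 21 (-0.04, -0.10 and -0.17).

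**Figure D1:**
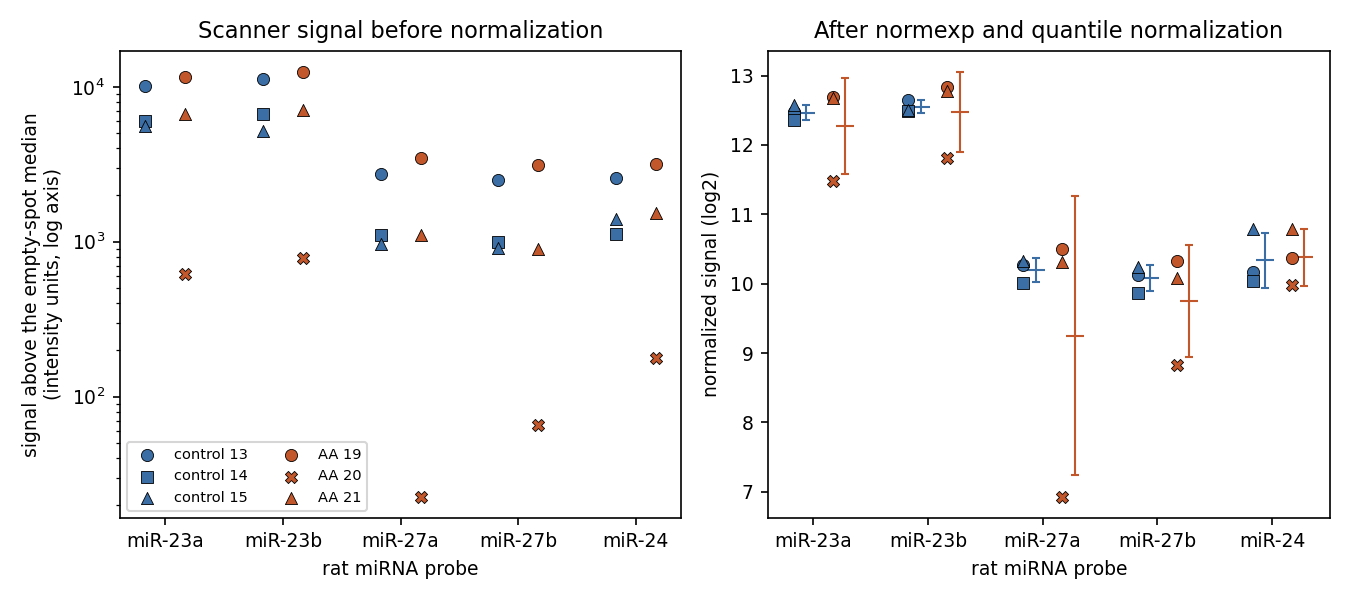
Signal of the 5 member probes on each array (blue, control; orange, AA; the cross is AA replicate 20), left as scanner signal above the empty-spot median on a log axis and right as normalized log2 signal with the mean and SD of each group (n = 3). AA replicate 20 has the lowest value of every member, and after normalization its difference from the control mean runs from -0.36 for miR-24 to -3.27 for miR-27a.

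Placed against the control mean, AA replicate 20 differed by -0.99 for miR-23a, -0.74 for miR-23b, -3.27 for miR-27a, -1.26 for miR-27b and -0.36 for miR-24 on the log2 scale. The median over all 1132 tested probes was -0.25. In the deposited table the difference of miR-24 turned to 0.25, with 1369 on AA replicate 20 against 1073, 922 and 1552 in control, while those of the other members stayed below 0, from -3.51 to -0.79. The value of miR-27a was at percentile 0.618 of the tested probes, those of the other members between percentile 12.7 and 42.4. In the mean of AA replicates 19 and 21 the members were 0.13 to 0.26 above control, between percentile 64.3 and 76.6, with a median of all tested probes of 0.00.

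The a and b copies were compared within arrays, as the a probe minus the b probe. Only the change of this difference between groups was read, since the level of one probe is not comparable with that of another. For miR-23a minus miR-23b it was -0.18, -0.13 and 0.07 in control and -0.15, -0.33 and -0.10 in AA, and the groups overlapped. The difference changed by -0.11 (SE 0.10, exact permutation test, two-sided p = 0.5, adjusted over both pairs 1). With 3 arrays against 3 the smallest possible p is 0.1. Without AA replicate 20 the change was -0.04 (exact permutation test, two-sided p = 0.9).

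For miR-27a minus miR-27b it was 0.14, 0.13 and 0.08 in control and 0.17, -1.89 and 0.22 in AA. The change was -0.62 (SE 0.70, exact permutation test, two-sided p = 1, adjusted 1). AA replicate 20 alone gave the negative value, at -1.53 in the scanner signal above the empty-spot median and -2.26 in the deposited table. With cyclic loess, median scaling or no normalization the change was -0.17. Without AA replicate 20 it was 0.08 (exact permutation test, two-sided p = 0.1, the smallest that 3 arrays against 2 allow), with both remaining AA arrays above all controls. On the arrays kept, the spots of the miR-27a and miR-27b probes differed with an SD of 0.03 to 0.49 (log2). Probes for targets with 1 or 2 other bases gave signal too, as described next, so whether a probe separates the copies was not tested.

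**Figure D2:**
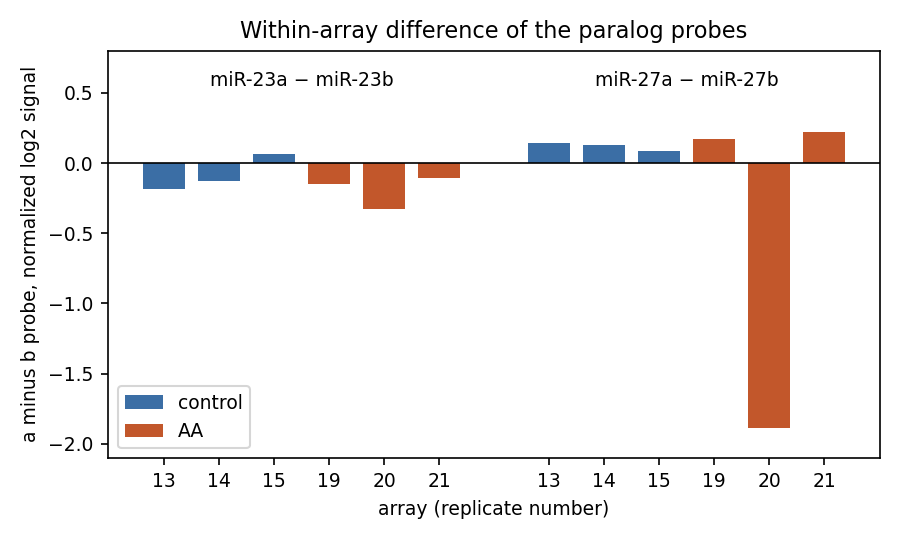
Difference of the a and b probes on each array, in normalized log2 signal, for miR-23 and miR-27 (blue, control; orange, AA). The bars lie between -0.33 and 0.22 except for miR-27a minus miR-27b on AA replicate 20, at -1.89.

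The array also carried 21 probes for sequences of other species or other miRNAs with one of the 3 seeds, of which 10 had the miR-23 seed, 8 the miR-27 seed and 3 the miR-24 seed. These probes read the same RNA samples and overlap the members in sequence, so they are not independent of them. The 20 that were tested had an adjusted p of 0.885 to 0.981 (limma), 0 passed, and 0 had an unadjusted p under 0.05. Of them 16 had a log2 change below 0, with a median of -0.39, against -0.05 over all tested probes. The untested one, hsa-miR-130a*, shares the seed with miR-23a but differs from it at 12 positions outside the seed. It did not reach 32 on any array in the deposited table.

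In the miR-23 group the log2 change ran from -1.32 for hsa-miR-23c, which was not well above background on AA replicate 20, to 0.10 for pma-miR-23a, with a median of -0.39. In the miR-27 group it ran from -0.82 for cfa-miR-27a to -0.15 for ggo-miR-27a, with a median of -0.41. In the miR-24 group it ran from -0.54 for mdo-miR-24 to 0.24 for xla-miR-24b, with a median of 0.07. Without AA replicate 20, 19 of the 20 were above 0 and the median was 0.30; hsa-miR-23c, at -0.25, was the exception. Over all 1100 probes tested on those 5 arrays 49.1% were above 0, and 0 of the 20 relatives passed.

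**Figure D3:**
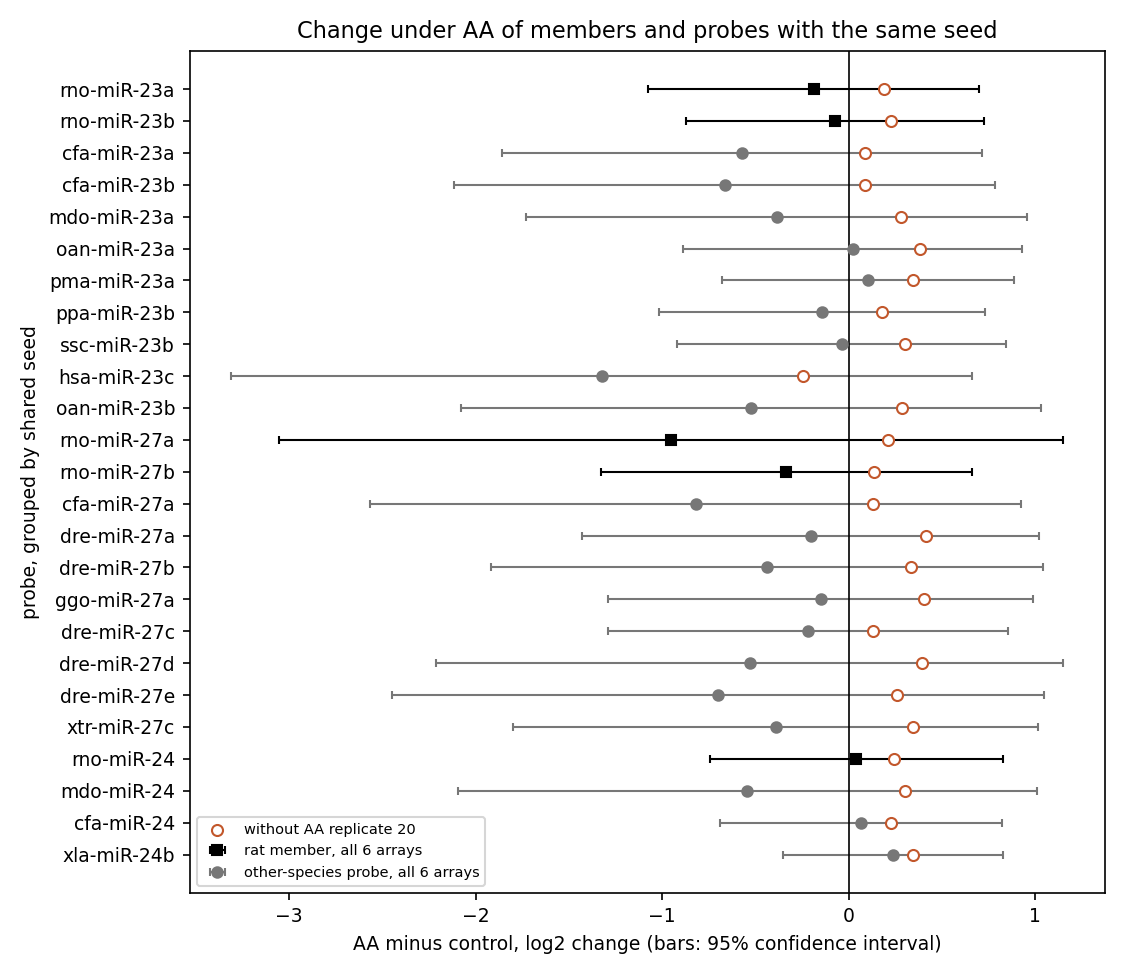
Log2 change under AA of the 5 members (black squares) and of the 20 tested probes with the same seeds (grey circles), with 95% confidence intervals from limma, and the change without AA replicate 20 (open orange circles). Every interval spans 0, and all open circles but that of hsa-miR-23c, at -0.25, lie above 0.

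On AA replicate 20 the medians of the probes with a shared seed differed by how their target relates to a member. The kinds overlapped, and they held different mixes of seeds. The grouping was made after the values were seen, so no test is given. A few targets show the kinds, with capitals marking bases that the nearest rat member lacks. For hsa-miR-23c that member is rno-miR-23b, whose target is given above, and for oan-miR-23a it is rno-miR-23a.
rno-miR-23a, the member: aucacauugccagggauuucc
oan-miR-23a, the whole target plus a base: aucacauugccagggauuuccA
cfa-miR-23a, shorter at its 3′ end: aucacauugccagggauuu
hsa-miR-23c, with a changed base: aucacauugccagUgauuaccC
rno-miR-24, the member: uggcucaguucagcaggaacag
mdo-miR-24, shorter at its 3′ end: uggcucaguucagcag
The human miR-23c target differs from rno-miR-23b by G14U and by the base added at its end.

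The 8 probes whose target held a whole member plus 1 or 2 bases had a median log2 difference from the control mean of -0.80 on AA replicate 20, from -1.95 (dre-miR-27b) to -0.25 (cfa-miR-24). Those with the miR-23 seed were at -0.80 to -0.46, and those with the miR-27 seed at -1.95 to -1.22. The 5 with a shorter target had a median difference of -2.20, from -2.72 (cfa-miR-27a) to -1.77 (mdo-miR-23a). Of the 6 with changed bases, hsa-miR-23c, dre-miR-27c and dre-miR-27d were not well above background on that array, so their differences there have only a bound. The other 3 were at -1.85 (xtr-miR-27c), -2.18 (oan-miR-23b) and -2.59 (dre-miR-27e). For xla-miR-24b, whose target lacks an inner base of miR-24, the difference was 0.05.

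Within the miR-23 seed, cfa-miR-23a, the first 19 bases of miR-23a, was at -1.90 on AA replicate 20, rno-miR-23a at -0.99 and oan-miR-23a at -0.77. The 16-base mdo-miR-24 was at -2.20, against -0.36 for rno-miR-24. The rat miR-27a probe did not follow the pattern of the whole-target probes. It was at -3.27, while dre-miR-27a and ggo-miR-27a, whose targets contain the whole miR-27a sequence, were at -1.42 and -1.22. In the mean of AA replicates 19 and 21 the same 3 probes were at 0.21, 0.41 and 0.39. The cause of these differences between probes was not tested.

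**Figure D4:**
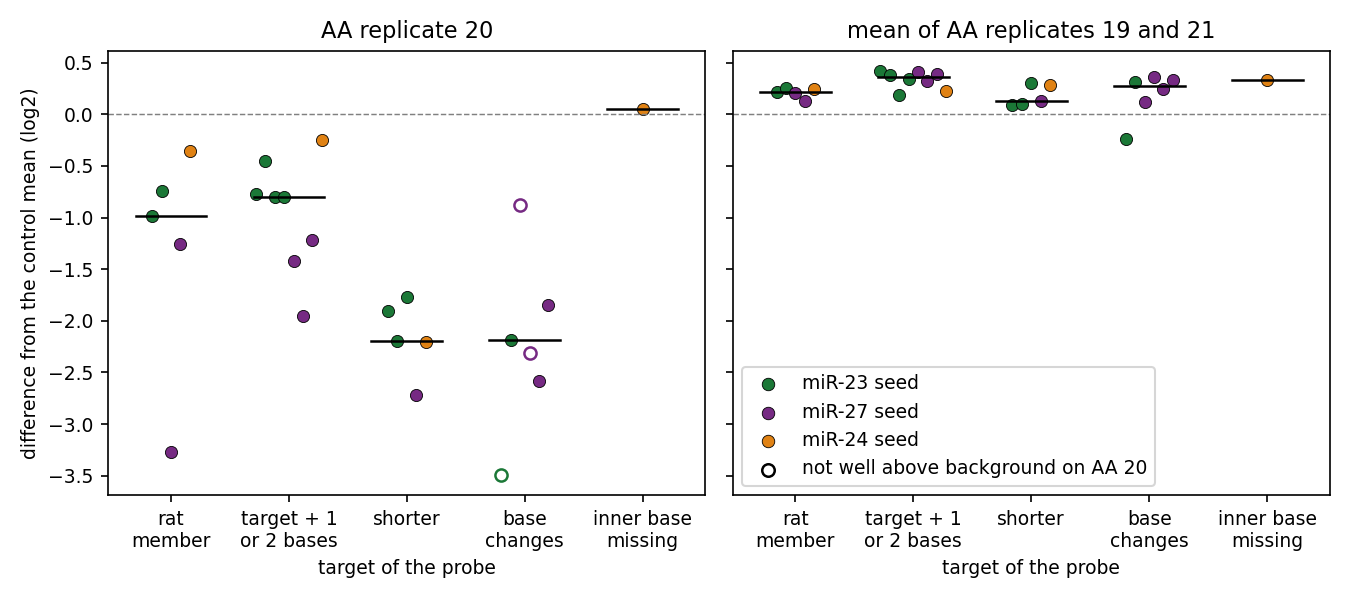
Difference from the control mean (log2) of the 5 members and the 20 tested probes with a shared seed, for AA replicate 20 (left) and the mean of AA replicates 19 and 21 (right), by kind of target; points are probes, coloured by seed, and bars are medians, on the left over filled points, since open points were not well above background there. On AA replicate 20 the medians are -0.99 for members, -0.80 for whole targets plus 1 or 2 bases, -2.20 for shorter targets and -2.18 for the 3 probes with changed bases that were well above background, while on the other AA arrays all medians lie between 0.13 and 0.36.

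The probes with changed bases also gave signal. All 6, dre-miR-27c (C11U), dre-miR-27d (G20U), dre-miR-27e (C19A, C21U), xtr-miR-27c (G20A), oan-miR-23b (U18A) and hsa-miR-23c (G14U), were well above background on all 3 control arrays. On the AA arrays dre-miR-27c, dre-miR-27d and hsa-miR-23c were so on 2 of 3, with AA replicate 20 the exception. rno-miR-128, whose seed resembles that of miR-27 shifted by a base, had a log2 change of 0.25 (SE 0.36, adjusted p = 0.885, limma). Its probe was dim, with a control mean of 6.73, and well above background on 3 control and 2 AA arrays. On AA replicate 20 it differed from the control mean by -0.45, against the sign of the change.

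The passenger strands, the arms of the hairpins that are mostly degraded, were near background. All 6 (miR-23a*, miR-23b*, miR-27a*, miR-27b*, miR-24-1* and miR-24-2*) have a probe, 0 reached 32 on any array in the deposited table, and 0 were therefore tested. miR-23a* was well above background on 3 arrays, miR-24-2* on 2, miR-23b* and miR-27b* on 1 each, and miR-27a* and miR-24-1* on 0. Their scanner signals ranged from 52.2 to 132.

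All list values here include AA replicate 20, and how far they rest on it was not tested. Among other miRNAs linked to the growth of blood vessels, 8 of 10 were tested, 0 passed and 6 were above 0, with a median log2 change of 0.14. Among those linked to TGF-β and fibrosis, 9 of 12 were tested and 0 passed, with 6 above 0, 3 below 0 and a median of 0.39. Those below 0 were miR-29c at -0.57, miR-192 at -0.28 and miR-29a at -0.08. This list shares miR-192, miR-200b and miR-200c with the kidney epithelium list. At an unadjusted p under 0.05 (limma) there were 3, all higher in AA. These were miR-21, a miRNA well known in fibrosis, at 1.56, miR-199a-3p at 0.74 and miR-214 at 0.72. Over all tested probes 1.15% were higher and 3.8% lower at that unadjusted threshold. In the kidney epithelium list 8 of 10 were tested, 0 passed and 6 were below 0, with a median of -0.28, and miR-194, at -0.82, had an unadjusted p under 0.05 (limma). In the leukocyte list 2 were tested and 0 passed, miR-146a at -0.78 with an unadjusted p under 0.05 (limma) and miR-150 at 0.34, and the 1 erythroid miRNA tested, miR-451, was at -0.34. The vessel wall markers miR-126, miR-143 and miR-145 were all well above background on 6 arrays, with log2 changes of -0.28, 0.06 and 0.08. The summed deposited signal of the 10 kidney epithelium markers was 15315 to 17152 in control and 9490 to 19604 in AA, and that of the 5 members 13870 to 14595 and 7962 to 16301; the part of the markers in the members' values was not tested.

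The miR-23 and miR-27 probes moved together, and miR-24 less closely, as far as 6 arrays with AA replicate 20 among them can show. Over the 6 arrays Pearson's r among the miR-23 and miR-27 probes, pairs of a and b copies included, was 0.945 to 0.985. Between miR-24 and the others it was 0.542 to 0.664. Without AA replicate 20, r was 0.533 to 0.958 among the miR-23 and miR-27 probes and 0.201 to 0.717 between miR-24 and the others. These ranges overlapped, so the contrast with miR-24 rests in part on that array. The points share the normalization and the low array.

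Of the 175 other rat probes tested, 27 had an r above 0.9 with the mean profile of the members. The 5 most alike were miR-30a (r = 0.997), miR-93 (0.995), miR-99a (0.993), miR-497 (0.984) and miR-30c (0.977). Without AA replicate 20 their r was 0.954, 0.955, 0.928, 0.764 and 0.892. On AA replicate 20 they differed from the control mean by -0.40 (miR-497) to -2.18 (miR-30a) on the log2 scale, and none passed the test between groups.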

How the data were processed

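Kidney RNA of 3 control and 3 AA-treated rats was read on 6 arrays, grouped by the labels. The deposited scanner files hold, for each of 15066 spots on an array, a median pixel intensity that is linear and neither background-corrected nor normalized. The authors' table holds linear intensity after background subtraction and LOWESS, per their methods. Scanner intensity was corrected with normexp (offset 50) and quantile-normalized as log2 values. Probes at 32 or more in at least 1 column of that table were kept for testing (1132 probes). Where that table had no row for a probe, its scanner signal above the empty-spot median was used for this filter. AA was compared with control by limma 3.58.1 in R 4.3.3, with Benjamini-Hochberg adjustment over all tested probes at 0.05; the paralog difference was tested by an exact permutation test. The offset understates fold changes near background. No member was near saturation, and the number of arrays limits the precision. The labels describe separate animals and name no batch, slide or scan. A local background column is not among the columns used here, so the block median of 2814 empty spots replaced it in an alternative. Alternatives also covered the offset, normalization, filter, spot averaging, deposited values, array weights, the methods' t-test and each replicate left out. The code was tested on simulated data. Named probes were the 5 members, the passenger strands, the relatives with the lowest and highest change per seed and the 5 rat probes most like the members; further relatives, list members and markers were named after their values were seen. Members and lists were chosen with earlier results of these data known. Sequences and positions are from RefSeq on GRCr8 or the array files.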

Additional observations from a re-analysis of the deposited data

How the results depend on the processing

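The count of 0 members called was the same under all 18 alternatives, replicates left out included. The sign of the changes was not. Array quality weights turned miR-23a to 0.22, miR-23b to 0.20, miR-27a to 0.089 and miR-27b to 0.10, and gave miR-24 0.54 (adjusted p = 0.199, limma), the only member with an unadjusted p under 0.05 there. With these weights 44 probes were called in all, against 2 without. miR-24 turned to -0.021 with cyclic loess, -0.55 with median scaling and -0.62 with no normalization. Median scaling and no normalization also moved miR-23a to -0.81 and -0.87, miR-23b to -0.72 and -0.79, and miR-27b to -0.83 and -0.90, with miR-27a at -1.01 and -1.07. They moved the median of all tested probes to -0.26 and -0.32, from -0.05. Cyclic loess gave -0.49 for miR-27a, and the change of miR-27a minus miR-27b was -0.17 under each of these scalings. The adjusted p of the members ranged from 0.199 to 0.994 over all alternatives.

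Leaving out each replicate in turn gave -0.42 to 0.19 for miR-23a, -0.27 to 0.23 for miR-23b, -1.48 to 0.21 for miR-27a, -0.63 to 0.13 for miR-27b and -0.17 to 0.26 for miR-24. It gave -0.17 to -0.03 for the change of miR-23a minus miR-23b and -0.98 to 0.080 for miR-27a minus miR-27b. Among these fits, values above 0 for miR-23a, miR-23b, miR-27a, miR-27b and miR-27a minus miR-27b came only without AA replicate 20. The cause was not tested. With array quality weights the change, as the difference of the fitted values and with no test, was 0.014 for miR-23a minus miR-23b and -0.015 for miR-27a minus miR-27b. No paired analysis was possible because the groups share no replicate numbers, and no slide or scan day is named that could serve as a block. miR-27a on AA replicate 20 lay close to background, which limits its value there.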
